A study of Mus musculus with 12 samples.

Results

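The 42 genes described here code for collagens, proteoglycans and other matrix proteins, markers of hepatic stellate cells, ligands and receptors of the TGF-beta and PDGF systems, metalloproteases with their inhibitors, crosslinking oxidases, and plasminogen activators with their receptor. They were chosen by gene symbol, and each of the 42 was matched to 1 of the 16475 probe sets that remained after the array controls were set aside. RNA from the livers of 12 mice was hybridised to Affymetrix arrays, with 3 arrays in each of 4 groups. The groups were c-Met knockout livers taken 2 h after 2 µg of recombinant mouse HGF given intraperitoneally, c-Met knockout livers without HGF, control livers at the same time after the same dose of HGF, and control livers without HGF. All mice carried c-Met alleles flanked by loxP sites, the controls included. The knockout mice had in addition a Cre transgene that acts in hepatocytes, Alfp-Cre (an albumin promoter with alpha-fetoprotein elements, active during embryonic development) or Alb-Cre (an albumin promoter, active from 2 weeks after birth). The labels do not say which transgene a given liver had, nor the age of the mice. Stellate cells, fibroblasts and endothelial cells are not known to use the albumin promoter. The protocol also names an injection of NaCl, and the labels do not say whether the livers without HGF had received it.

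The extracellular matrix of the liver is made largely by hepatic stellate cells and portal fibroblasts, with a share from sinusoidal endothelial cells and hepatocytes. A quiescent stellate cell stores vitamin A; when activated by TGF-beta and PDGF, it takes on contractile proteins and deposits fibrillar collagen, which lysyl oxidases crosslink. Metalloproteases and plasmin degrade matrix, TIMP proteins inhibit the metalloproteases, and plasminogen activators make plasmin from plasminogen. The series is concerned with how c-Met in hepatocytes bears on liver damage and fibrosis after bile duct ligation, but the livers on these arrays are not labelled as ligated.

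The values are log2(intensity + 1), where the intensity is the deposited normalised signal of a probe set, and each probe set is compared only with itself. A value of at least 4 on at least 3 arrays was required for a test, which 6683 of 16475 probe sets and 20 of the 42 genes met. Hepatocyte markers identified the tissue, with 6 of 6 past this filter and summed levels between 78.9 and 80.1 on every array. The Met probe set did not separate the genotypes: knockout livers had 6.61, 7.40 and 6.29 with HGF and 7.06, 6.68 and 7.18 without, against 6.59, 6.78 and 7.02 in control livers with HGF and 6.62, 6.84 and 6.77 without. No source used here places its probes relative to the deleted part of the gene, so it does not check the labels, and "knockout" below means the arrays labelled so. Knockouts hold array numbers 7 to 12 and controls hold 1 to 6, so genotype and array order cannot be told apart. On an index of the HGF response built from all tested probe sets except the 42 genes (0 at the mean of the control livers without HGF, 1 at that of the control livers with it), 2 knockout arrays went against their labels. Knockout replicate 2 without HGF lay at 0.98, beside the control livers with HGF at 0.88 to 1.06, and knockout replicate 2 with HGF lay at 0.02. The other knockout arrays lay at 0.32 and 0.94 with HGF and at 0.12 and 0.04 without. For some genes and counts, the knockout results are therefore also given without both replicate 2 arrays. Because these arrays were set apart by their HGF response, p-values without them are a description and not a test.

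The stellate cell character of the list was only partly measurable. Of 8 measured stellate markers, 3 passed the filter: Lrat, which makes retinyl esters for vitamin A storage, Reln, a secreted glycoprotein, and Rgs5, a regulator of G protein signalling. Des, an intermediate filament protein used as a marker of rodent stellate cells, stayed between 2.35 and 2.57 on all 12 arrays. Portal fibroblast markers were at the low end of the scale, with 0 of 6 past the filter and summed levels of 13.1 to 13.9 and 13.3 to 14.9 in knockout livers with and without HGF, against 13.6 to 13.8 and 13.1 to 13.8 in control livers with and without HGF. Mesothelial markers also had 0 of 4 past the filter. In bulk tissue, fewer cells of a type and less RNA per cell cannot be told apart.

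**Figure D1:**
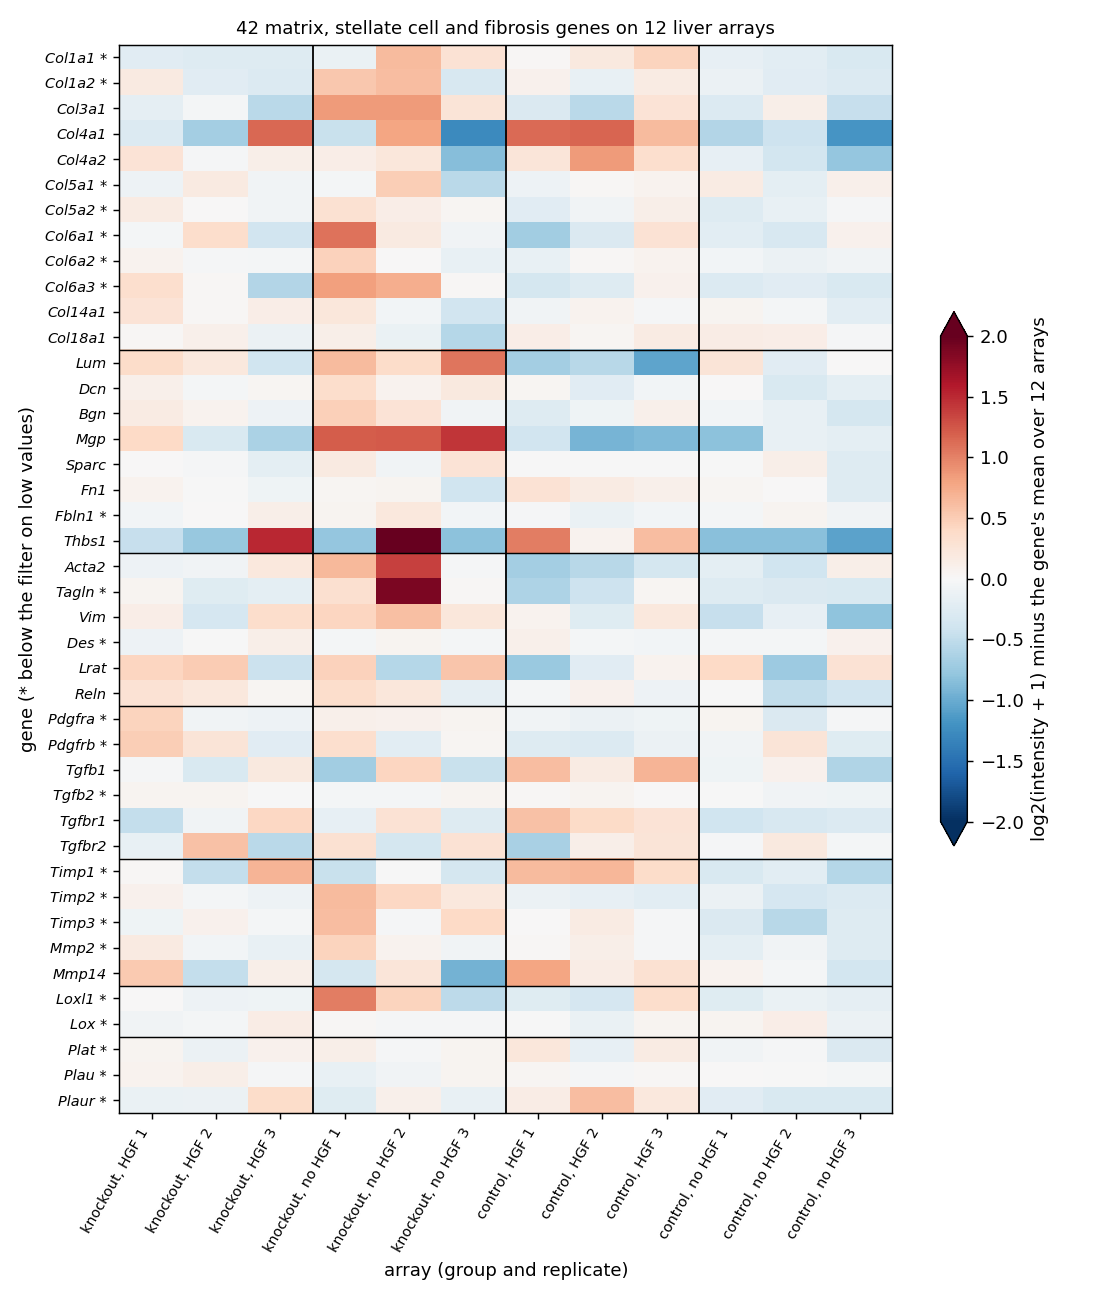
Levels of the 42 genes on the 12 arrays, each as log2(intensity + 1) minus the gene's mean over the 12 arrays, with genes in rows by role and arrays in columns by group. In the columns of the knockout livers without HGF, Mgp, Col3a1, Vim and Timp2 lie above their mean on all 3 arrays, whereas Col4a1 and Thbs1 lie above it on replicate 2 alone.

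In control livers, Col4a1, Col4a2, Tgfb1, Tgfbr1, Thbs1, Timp1 and Plaur had all 3 values with HGF above all 3 without it, and Lum had them below. None of the 20 tested genes passed the test (limma with Benjamini-Hochberg adjusted p under 0.05), where 0.404% of all tested probe sets did, so these are descriptions of the arrays. At an unadjusted p under 0.05, 5 genes were higher with HGF and 1 was lower, against backgrounds of 8.95% and 10.6%. Tgfb1, Tgfbr1 and Thbs1 passed the filter only with the control arrays with HGF counted. Their tests and their places in the counts among tested genes are a description. Counted over all 42, 13 genes had all 3 HGF values above all 3 values without HGF and 1 had them all below, against backgrounds of 10.5% and 15.1% of all 16475 probe sets. The median difference was 0.09 over the 42 genes and -0.03 over all probe sets, fitted with no filter.

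Type IV collagen is the network-forming collagen of basement membranes, and Col4a1 and Col4a2 code for the chains of its most widespread form. Col4a1 had 8.84, 8.87 and 8.34 in control livers with HGF, against 7.12, 7.29 and 6.54 in control livers without HGF. Every HGF value lay above every value without it, by 1.70 on the log2 scale (SE 0.55, 95% interval 0.48 to 2.92, limma adjusted p = 0.137), a 3.25-fold ratio of intensity + 1. Over 19 alternatives the adjusted p ranged between 0.00614 and 0.361, and 3 of them passed. With only the control arrays in the fit, Col4a1 passed with an adjusted p of 0.00614, and without both knockout replicate 2 arrays with one of 0.0307. Col4a2 had 5.57, 6.17 and 5.65 with HGF, against 5.16, 4.96 and 4.54 without HGF. It too was higher in 3 of 3 arrays, by 0.91 (SE 0.29, limma adjusted p = 0.133, range 0.0147 to 0.361).

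Both chains are read from neighbouring genes on chromosome 8, on opposite strands, with no other coding gene between them. Their annotated starts lie 21 bases apart. Each start falls just inside the other gene, so the annotated first ends of the genes overlap. The windows from 250 bases before to 50 bases after each start are shown because both genes had separate groups in the same direction in control livers and because the windows share 78 bases. The sequences are from RefSeq (GRCm38.p6), chr8:11312777-11313076 on the minus strand for Col4a1 and chr8:11312555-11312854 on the plus strand for Col4a2. Capitals mark matches on either strand to CCAAT, to GGGCGG and to TGANTCA, the core recognised by AP-1 factors.
Col4a1: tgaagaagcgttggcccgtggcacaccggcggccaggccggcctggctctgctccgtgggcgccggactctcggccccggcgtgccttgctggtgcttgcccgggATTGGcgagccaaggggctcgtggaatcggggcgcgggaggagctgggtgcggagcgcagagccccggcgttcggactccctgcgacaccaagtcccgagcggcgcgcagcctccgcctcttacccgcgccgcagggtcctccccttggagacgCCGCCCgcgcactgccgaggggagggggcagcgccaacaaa
Col4a2: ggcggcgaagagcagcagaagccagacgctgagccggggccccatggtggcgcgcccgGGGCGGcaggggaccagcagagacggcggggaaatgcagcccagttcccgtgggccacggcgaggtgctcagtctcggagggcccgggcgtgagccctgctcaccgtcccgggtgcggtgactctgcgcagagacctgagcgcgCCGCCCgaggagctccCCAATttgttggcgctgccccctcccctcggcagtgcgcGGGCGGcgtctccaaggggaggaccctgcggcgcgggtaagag
Both windows hold CCAAT and GGGCGG matches and no TGANTCA. The 1 GGGCGG match of Col4a1 lies in the shared bases and is the same site as the last GGGCGG match of Col4a2. These short motifs are common, at 37.4% of 32851 annotated promoter windows for CCAAT and 35.7% for GGGCGG, against 7.81% for TGANTCA. A match is a description of letters and not evidence of a bound factor.

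All the other collagens but Col1a1 overlapped between the groups in control livers. Col3a1, a fibrillar collagen, had 7.96, 7.71 and 8.52 with HGF, against 7.97, 8.36 and 7.80 without, and these overlap, with a difference of 0.02 (SE 0.25). Col14a1, a fibril-associated collagen, and Col18a1, the basement membrane collagen that yields endostatin, differed by 0.05 and 0.02. Col1a1, the main chain of type I collagen, lay below the filter but had 3.16, 3.33 and 3.58 with HGF, against 2.97, 2.92 and 2.82 without. All 3 of its HGF values were the higher ones, by 0.45 in the fit with no filter (limma adjusted p = 0.262).

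Genes of TGF-beta signalling had mixed values. Tgfb1, the ligand, had 4.21, 3.75 and 4.27 in control livers with HGF, against 3.51, 3.67 and 2.99 without HGF, and the groups did not overlap (0.69, SE 0.29, limma adjusted p = 0.234). Tgfbr1, the type I receptor kinase, had 4.55, 4.35 and 4.24 with HGF, against 3.57, 3.64 and 3.70 without. The difference was 0.74 (SE 0.22, limma adjusted p = 0.120, range 0.00840 to 0.333), and again every HGF array was the higher. This was the smallest adjusted p of the 20 genes in this comparison. As Tgfb1 and Tgfbr1 passed the filter only with these HGF arrays counted, their tests and this rank are a description. Tgfbr2, the type II receptor that binds the ligand, overlapped between the groups at 4.28, 5.03 and 5.18 with HGF, against 4.91, 5.12 and 4.89 without. Tgfb2 lay between 2.10 and 2.25 on all arrays, far below the filter, and its values with and without HGF were apart by a hundredth in control livers.

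Thbs1 codes for thrombospondin 1, a matrix glycoprotein that can activate latent TGF-beta. It had 4.15, 3.21 and 3.75 in control livers with HGF, against 2.30, 2.30 and 2.06 in control livers without HGF. These groups did not overlap, with a difference of 1.48 (SE 0.81, limma adjusted p = 0.342) and, without both knockout replicate 2 arrays, a SE of 0.44 and an adjusted p of 0.0754. Thbs1 too passed the filter only with the control arrays with HGF counted. In the wider pathway list, the differences of largest size were those of Skil, a corepressor of SMAD proteins, at 1.63 (SE 0.50, limma adjusted p = 0.127), and Tgif1, another corepressor, at 1.16 (SE 0.41, adjusted p = 0.167). Smad7, an inhibitor of the receptors, differed by -1.08 (SE 0.65, adjusted p = 0.380). Of 12 tested genes of this pathway list 0 passed in either direction.

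Among the proteases, Mmp14, a membrane-bound metalloprotease, had 6.61, 5.96 and 6.13 in control livers with HGF, against 5.88, 5.78 and 5.45 without HGF. Its groups were apart by a narrow margin (0.53, SE 0.33, limma adjusted p = 0.397). Timp1, an inhibitor of many metalloproteases, had 3.43, 3.46 and 3.17 with HGF, against 2.50, 2.59 and 2.24 without, all below the filter. Every HGF value was the higher, by 0.91 in the fit with no filter (SE 0.25, limma adjusted p = 0.151). With no filter and without both knockout replicate 2 arrays, a setting chosen after the data were seen, Timp1 passed (SE 0.17, limma adjusted p = 0.0275). That p-value is a description. Plaur, the receptor that holds the urokinase-type activator at the cell surface, had 2.77, 3.23 and 2.83 with HGF, against 2.38, 2.31 and 2.30 without. It was below the filter as well, with no overlap between the groups (0.61, SE 0.16, limma adjusted p = 0.144). The activators themselves overlapped between the groups and stayed low on all arrays, Plau (urokinase) between 1.94 and 2.20 and Plat (tissue-type activator) between 2.33 and 2.85. Among matrix proteases outside the list, 0 of 5 tested passed. The differences of largest size were 2.27 for Adamts4 (SE 0.59, limma adjusted p = 0.0989), 2.16 for Mmp8, a neutrophil collagenase (SE 0.68, adjusted p = 0.133), and 1.86 for Adamts1 (SE 0.40, adjusted p = 0.0785).

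The promoter windows of Plaur and Timp1 are shown because both had separate groups in control livers and because Plaur is 1 of 2 list members whose window holds a TGANTCA match, the other being Col6a1. They are from RefSeq (GRCm38.p6), chr7:24462233-24462532 on the plus strand for Plaur and chrX:20869916-20870215 on the plus strand for Timp1, with the same motifs in capitals.
Plaur: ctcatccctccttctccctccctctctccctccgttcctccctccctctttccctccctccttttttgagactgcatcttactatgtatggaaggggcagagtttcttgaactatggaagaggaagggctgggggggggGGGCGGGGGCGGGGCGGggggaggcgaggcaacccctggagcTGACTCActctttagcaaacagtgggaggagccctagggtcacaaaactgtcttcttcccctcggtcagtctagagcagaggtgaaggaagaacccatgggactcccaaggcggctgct
Timp1: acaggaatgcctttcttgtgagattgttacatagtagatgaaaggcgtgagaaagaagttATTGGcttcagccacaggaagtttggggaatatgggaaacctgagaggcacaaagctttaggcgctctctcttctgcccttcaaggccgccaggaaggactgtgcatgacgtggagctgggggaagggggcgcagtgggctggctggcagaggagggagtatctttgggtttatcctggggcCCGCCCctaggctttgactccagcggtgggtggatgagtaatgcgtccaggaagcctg
Windows were given for 27 of the 42 genes, 31 windows in all, of which 13 held CCAAT and 19 held GGGCGG. The GGGCGG site shared by Col4a1 and Col4a2 counts in both of their windows.

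Lumican, a small leucine-rich proteoglycan that binds collagen fibrils, was the 1 gene of the 42 whose values with HGF all lay below those without it in control livers. Lum had 5.71, 5.84 and 5.34 in control livers with HGF, against 6.65, 6.17 and 6.40 in control livers without HGF. The values did not overlap, and the difference was -0.78 (SE 0.24, limma adjusted p = 0.133, range 0.0103 to 0.360). Its neighbour on chromosome 10, Dcn (decorin, a related proteoglycan), had 9.99, 9.73 and 9.89 with HGF, against 9.95, 9.65 and 9.76 without, which overlap. The stellate markers overlapped too: Lrat had 3.32, 3.84 and 4.14 with HGF, against 4.45, 3.33 and 4.35 without, and Reln 8.83, 8.95 and 8.76 with HGF, against 8.87, 8.38 and 8.49 without. Vim, a filament protein of mesenchymal cells, had 6.90, 6.58 and 7.04 with HGF, against 6.37, 6.67 and 6.02 without, with overlap at 1 array (0.49, SE 0.22, limma adjusted p = 0.251). The other genes with separate groups were Fn1, Timp3 and Mmp2, by 0.26, 0.42 and a margin of a few hundredths.

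Neutrophil markers were high on the same arrays. Of 6 measured neutrophil genes 2 passed the filter, S100a8 and S100a9, and the summed level of the list ran from 15.6 to 29.7 in knockout livers with HGF and from 16.8 to 29.4 in knockout livers without it. In control livers it ran from 27.7 to 32.8 with HGF, against 16.1 to 19.5 without. S100a9 was at 9.51 on knockout replicate 2 without HGF, where Col4a1 (8.51), Thbs1 (5.48) and Tgfb1 (4.02) were at their highest among the knockout livers without HGF. Sinusoidal endothelial markers, 9 of 10 past the filter, lay mostly the other way in control livers: 8 of 9 were lower with HGF, 5 with separate groups, and 0 passed. Of all tested probe sets, 4307 of 6683 were lower with HGF in control livers, and 23.7% had separate groups with HGF lower. The differences of largest size were 2.61 for Lyve1 (limma adjusted p = 0.107), -1.11 for Kdr (adjusted p = 0.296) and -0.91 for Gpr182 (adjusted p = 0.0507). Their summed level was 60.6 to 62.4 and 60.6 to 61.0 in knockout livers with and without HGF, against 59.6 to 60.8 and 61.5 to 61.8 in control livers with and without HGF. The part of neutrophils and endothelium in these values was not tested.

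**Figure D2:**
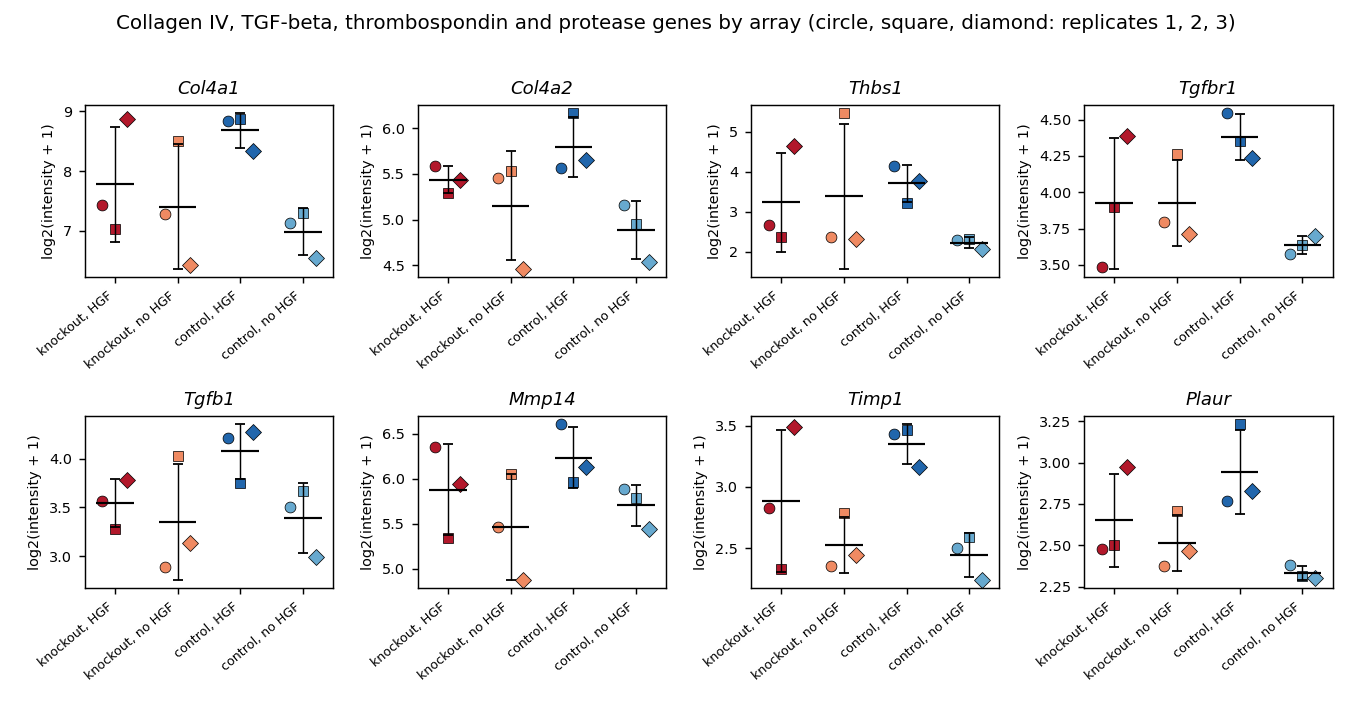
Levels of 8 genes as log2(intensity + 1) on each array, with 1 panel per gene, the 4 groups along the horizontal axis, a bar at each mean and whiskers of 1 SD (n = 3). In each panel the 3 control livers with HGF lie above the 3 control livers without HGF, and among the knockout livers without HGF replicate 2 (square) is the highest.

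In knockout livers, Mgp, Col3a1, Lum, Timp2 and Col1a1 had all 3 values with HGF below all 3 without it, while the type IV collagen genes overlapped between the groups. Again 0 of 20 genes passed the limma test, with 0% of all probe sets called. At an unadjusted p under 0.05, 4 genes were lower and 0 higher, against backgrounds of 0.883% and 1.02%. Over all 42 genes, 5 had non-overlapping groups with HGF lower and 0 with HGF higher, against backgrounds of 2.44% and 4.16%.

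Mgp, matrix Gla protein, an inhibitor of calcification, had 3.49, 2.79 and 2.46 in knockout livers with HGF, against 4.30, 4.32 and 4.52 in knockout livers without HGF. Mgp passed the filter only through its 3 knockout arrays without HGF, so all its tests are given from the fit with no filter, and its places in the counts among tested genes are a description. All HGF values were the lower ones, by -1.47 (SE 0.27, limma adjusted p = 0.999). Col3a1 had 8.07, 8.21 and 7.71 with HGF, against 9.11, 9.10 and 8.51 without, also with no overlap (-0.91, SE 0.25, adjusted p = 1.00). Lum had 6.75, 6.60 and 6.00 with HGF, against 7.03, 6.75 and 7.47 without, apart by the narrowest margin (-0.64, SE 0.24). Timp2 and Col1a1, both below the filter, were lower by -0.44 and -0.51 in the fit with no filter. Over the 19 alternatives the difference in Mgp ran between -1.76 and -0.66, the smallest with a pseudocount of 16, and none of them passed.

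Type IV collagen depended on the replicate in these livers. Col4a1 had 7.43, 7.03 and 8.87 in knockout livers with HGF, against 7.27, 8.51 and 6.43 without HGF, so the groups overlapped and the difference was 0.37 (SE 0.55). Without both replicate 2 arrays it was 1.30 (SE 0.47, limma adjusted p = 0.157). Those arrays were set apart by an index of the HGF response, so leaving them out can itself favour an HGF effect in the others. The p-values without them are a description. Thbs1 had a like pattern, at 2.67, 2.37 and 4.65 with HGF against 2.36, 5.48 and 2.32 without, a difference of -0.15 that became 1.32 (SE 0.54, adjusted p = 0.194) without those arrays. Mmp14 differed by 0.41 with all arrays and by 0.98 (SE 0.28, adjusted p = 0.0910) without them. With 2 arrays a group, 16 of the 42 genes had groups that did not overlap, against a background of 41.9%.

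Whether HGF acted differently in the 2 genotypes was tested as the difference of its effects, knockout minus control, and 0 of 20 genes passed, with 0% of all probe sets called. The unadjusted p was under 0.05 for 4 genes with a lower effect in the knockout and 0 with a higher one, against backgrounds of 5.04% and 5.79%. The effect in the knockout was lower for Mgp by -1.13 (SE 0.38, limma adjusted p = 0.470 with no filter), Col3a1 by -0.93 (SE 0.35, adjusted p = 0.411), Vim by -0.85 (SE 0.31, adjusted p = 0.400) and Tgfbr1 by -0.74 (SE 0.31, adjusted p = 0.439). For Lum, lower with HGF in both genotypes, the difference of the effects was 0.14 with a 95% interval of -0.62 to 0.91. Col4a1 had an interval of -3.05 to 0.39. All these fits hold both knockout replicate 2 arrays, which lay with the opposite HGF condition on the response index. Without those arrays, the HGF effect of Col4a1 in knockout livers was larger, as given above. The difference of the effects was then -1.09 for Mgp (SE 0.45, limma adjusted p = 0.495 with no filter).

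Without HGF, Mgp, Lum, Dcn, Col3a1, Vim, Tagln, Timp2 and Timp3 had all 3 knockout values above all 3 control values, while Bgn and Acta2 overlapped. None of the 20 tested genes passed the limma test, where 0.0599% of all probe sets did. The unadjusted p was under 0.05 for 8 genes higher and 0 lower in the knockout, against backgrounds of 4.1% and 6.72%. Over all 42 genes, 15 had all 3 knockout values above all 3 control values and 0 had them below, against backgrounds of 5.71% and 9.57%. The median difference was 0.28 over the 42 genes and -0.01 over all probe sets, fitted with no filter. The 7 of the 15 that passed the filter were Col3a1, Lum, Dcn, Mgp, Vim, Thbs1 and Tgfbr1, the last pair by a margin under 0.1, and the 8 below it were Col1a1, Col5a2, Col6a3, Tagln, Timp2, Timp3, Pdgfra and Plat. The comparison of HGF in knockout livers uses the same 3 knockout arrays without HGF. Mgp, Col3a1, Lum, Timp2 and Col1a1, lower with HGF there, are all among the 15 here, so these results are not independent. This comparison and that of HGF in control livers share the 3 control arrays without HGF, and on none of those 3 arrays did any of the 42 genes have its highest value. The highest value fell on the 3 knockout arrays without HGF for 12, 8 and 4 genes, where 8.43%, 5.63% and 13.9% of all probe sets had theirs. The third of these arrays also had the lowest value for 10 genes (11.4% of all probe sets), as did control replicate 3 without HGF (5.85%). Kupffer cell and macrophage markers lay the other way in this comparison. All 8 passed the filter and were lower in the knockout, 2 with separate groups and 0 past the test, with differences of largest size in Timd4 (-0.67), Cd5l (-0.62) and Csf1r (-0.59). Of all tested probe sets, 3668 of 6683 were lower in the knockout without HGF, and 12.1% had separate groups with it lower. Their summed level was 51.4 to 57.9 and 50.7 to 53.9 in knockout livers with and without HGF, against 54.3 to 57.4 and 53.0 to 58.9 in control livers with and without HGF. Their part in the values of the 42 genes was not tested.

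Mgp had 4.30, 4.32 and 4.52 in knockout livers without HGF, against 2.27, 2.95 and 2.89 in control livers without HGF. Every knockout value was the higher, by 1.68 (SE 0.27, 95% interval 1.09 to 2.27, limma adjusted p = 0.117 with no filter). Lum had 7.03, 6.75 and 7.47 in knockout livers, against 6.65, 6.17 and 6.40 in control livers, with no overlap (0.68, SE 0.24, limma adjusted p = 0.337). Dcn had 10.30, 10.03 and 10.14, against 9.95, 9.65 and 9.76 in control livers, again apart in every array (0.37, SE 0.12, adjusted p = 0.287). Bgn, the third small proteoglycan of the list, had 8.98, 8.77 and 8.42 in knockout livers and 8.44, 8.34 and 8.14 in control livers, which overlap at 1 array (0.42, SE 0.16, adjusted p = 0.376).

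Among collagens, Col3a1 had 9.11, 9.10 and 8.51 in knockout livers without HGF, against 7.97, 8.36 and 7.80 in control livers without HGF. The groups were apart (0.86, SE 0.25, limma adjusted p = 0.248, range 0.0250 to 0.562). The chains of type I collagen lay below the filter: Col1a1 had 3.003, 3.765 and 3.419 in knockout livers, against 2.968, 2.920 and 2.824 in control livers, with no overlap but a margin of a few hundredths. Col1a2 overlapped, with 3.73, 3.80 and 2.87, against 3.06, 2.95 and 2.91. Col6a3, a chain of the microfibrillar type VI collagen, was higher on all 3 knockout arrays (4.34, 4.25 and 3.55, against 3.26, 3.31 and 3.22). Its partner chains Col6a1 and Col6a2, neighbours on chromosome 10, overlapped between the groups. Col18a1 differed by -0.28 (SE 0.16) and overlapped.

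Vim (vimentin) had 7.26, 7.44 and 7.06 in knockout livers without HGF, against 6.37, 6.67 and 6.02 in control livers. It was higher in all arrays, by 0.89 (SE 0.22, limma adjusted p = 0.165, range 0.0201 to 0.425). Acta2, smooth muscle actin and the usual marker of an activated stellate cell, had 5.22, 5.94 and 4.55, against 4.38, 4.17 and 4.69 in control livers. Replicate 3 of the knockout lay within the control values, and the difference was 0.82 (SE 0.29, adjusted p = 0.336). Tagln, an actin-binding protein of smooth muscle, had 3.77, 5.32 and 3.48, against 3.20, 3.16 and 3.14, apart in every array, with replicate 2 well above the others (1.02, SE 0.39, limma adjusted p = 0.470 with no filter). Without both knockout replicate 2 arrays, the difference in Tagln was 0.45 (SE 0.18, adjusted p = 0.342 with no filter). The difference in Acta2 without them was 0.47 (SE 0.23, limma adjusted p = 0.311, unadjusted p = 0.0727). Reln had 9.22, 9.10 and 8.69, against 8.87, 8.38 and 8.49, and Lrat 4.53, 3.49 and 4.62, against 4.45, 3.33 and 4.35, both with overlap.

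Smooth muscle markers other than Acta2 and Tagln were mixed. Of the 6 genes of that list, which include Acta2, Tagln and Des, 1 passed the filter. Their summed level was 18.1 to 18.3 and 18.6 to 23.7 in knockout livers with and without HGF, against 16.7 to 17.5 and 17.4 to 18.0 in control livers with and without HGF. Myl9, a smooth muscle myosin light chain, had 3.91, 4.79 and 3.36 in knockout livers without HGF, against 2.86, 2.89 and 3.10 in control livers without HGF. The defining marker Myh11 stayed between 2.35 and 2.88 on all arrays, and Des was as flat. The part of vessel wall cells in these values was not tested. Stellate cell markers summed to 31.0 to 34.2 in knockout livers without HGF, against 30.7 to 32.4 in control livers without HGF, which overlap.

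Timp2, an inhibitor that also takes part in the activation of Mmp2, had 4.25, 4.03 and 3.83 in knockout livers without HGF, against 3.49, 3.27 and 3.35 in control livers without HGF. With HGF it had 3.70, 3.58 and 3.51 in knockout livers, against 3.50, 3.46 and 3.41 in control livers. It was the 1 gene of the 42 with all 6 knockout values above all 6 control values, where 0.212% of all probe sets were, although the margin with HGF was about a hundredth. It lay below the filter, and in the fit with no filter it differed by 0.66 without HGF (SE 0.11, limma adjusted p = 0.128). Timp3, an inhibitor bound to the matrix, had 4.223, 3.588 and 4.001 in knockout livers without HGF, against 3.32, 3.05 and 3.35 in control livers (0.70, SE 0.15, adjusted p = 0.179), with no overlap. With no filter and without both knockout replicate 2 arrays, a setting chosen after the data were seen, it was 0.87 (SE 0.12) and passed (limma adjusted p = 0.0182). With HGF its values overlapped, at 3.52, 3.69 and 3.57, against 3.61, 3.78 and 3.59. Mmp2, a gelatinase, and Mmp14 overlapped between the genotypes without HGF. Among genes of collagen processing outside the list, 0 of 6 tested passed. Of these, 3 were higher and 3 lower, with differences of largest size in Serpinh1, the collagen chaperone of the endoplasmic reticulum (0.71, SE 0.31, limma adjusted p = 0.449), Plod1, a lysyl hydroxylase (0.58, SE 0.20, adjusted p = 0.319), and Bmp1, a procollagen protease (-0.45, SE 0.24, adjusted p = 0.564).

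**Figure D3:**
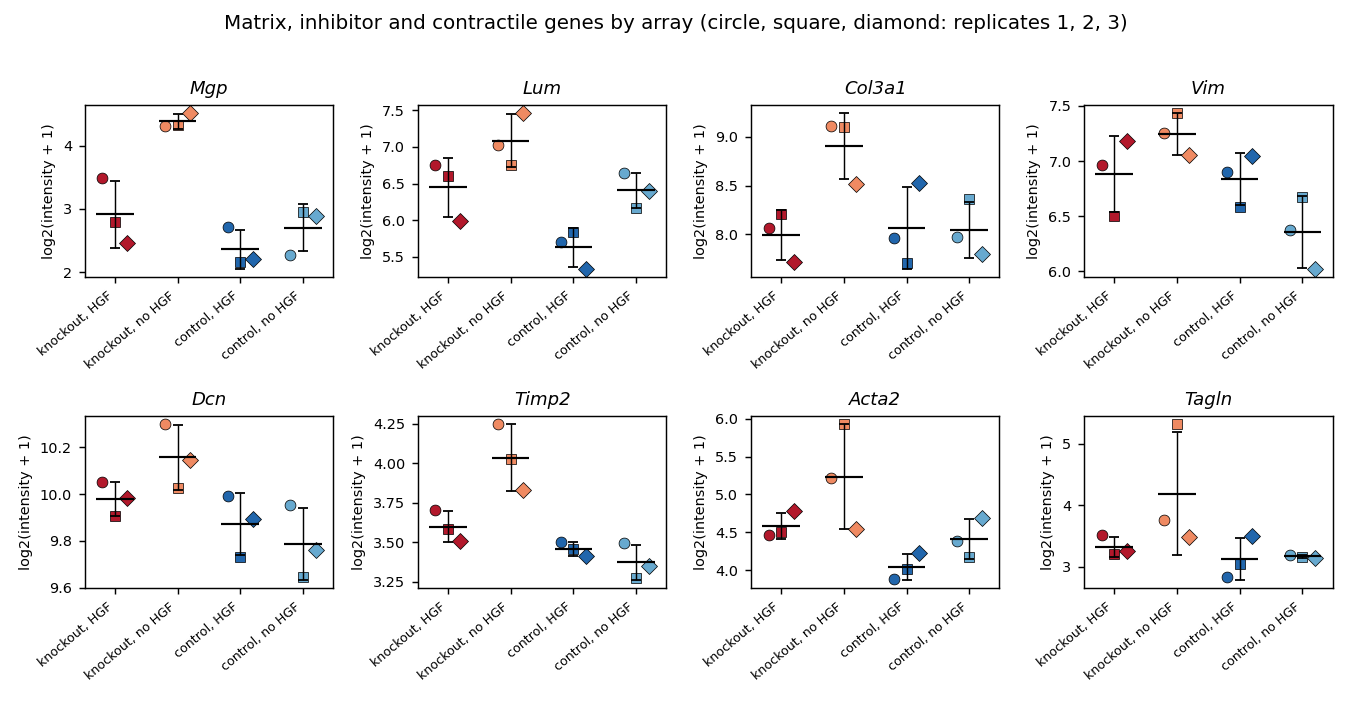
Levels of 8 genes as log2(intensity + 1) on each array, with 1 panel per gene, the 4 groups along the horizontal axis, a bar at each mean and whiskers of 1 SD (n = 3). The knockout livers without HGF have the highest mean in each panel, and for Acta2 and Tagln replicate 2 (square) lies above the other arrays of that group.

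With HGF, few of the genes separated the genotypes. None of 20 passed the limma test, where 0.015% of all probe sets did, and the unadjusted p was under 0.05 for 1 gene higher and 0 lower in the knockout, against backgrounds of 5.3% and 4.28%. That gene was Lum, which had 6.75, 6.60 and 6.00 in knockout livers with HGF, against 5.71, 5.84 and 5.34 in control livers with HGF. The groups were apart (0.82, SE 0.24, limma adjusted p = 0.474, range 0.0234 to 0.828). Acta2 also had separate groups, with 4.47, 4.50 and 4.79, against 3.89, 4.01 and 4.22 in control livers (0.54, SE 0.29, adjusted p = 0.566). Fn1, fibronectin, which hepatocytes secrete into plasma, was lower on every knockout array, at 11.63, 11.55 and 11.47, against 11.85, 11.72 and 11.66 (-0.19, SE 0.14, adjusted p = 0.660). Col1a1 was the other gene with all values lower, at 2.92, 2.87 and 2.87, against 3.16, 3.33 and 3.58. Over all 42 genes, 3 had non-overlapping groups with the knockout higher and 2 with it lower, against backgrounds of 7.05% and 5.51%.

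Averaged over both conditions, 0 of 20 genes passed for the knockout, with 0.015% of all probe sets called, and 8 had an unadjusted p under 0.05 with the knockout higher and 0 with it lower, against backgrounds of 4.47% and 4.91%. Mgp differed by 1.11 (SE 0.19, limma adjusted p = 0.154 with no filter), with overlapping groups and a difference of 0.55 under HGF. Of the others, the larger differences were 0.75 for Lum (SE 0.17, limma adjusted p = 0.193), 0.68 for Acta2 (SE 0.21, adjusted p = 0.315) and 0.47 for Vim (SE 0.15, adjusted p = 0.378). The smaller ones were 0.40 for Col3a1 (SE 0.18), 0.31 for Reln (SE 0.12), 0.27 for Bgn (SE 0.11) and 0.24 for Dcn (SE 0.08).

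**Figure D4:**
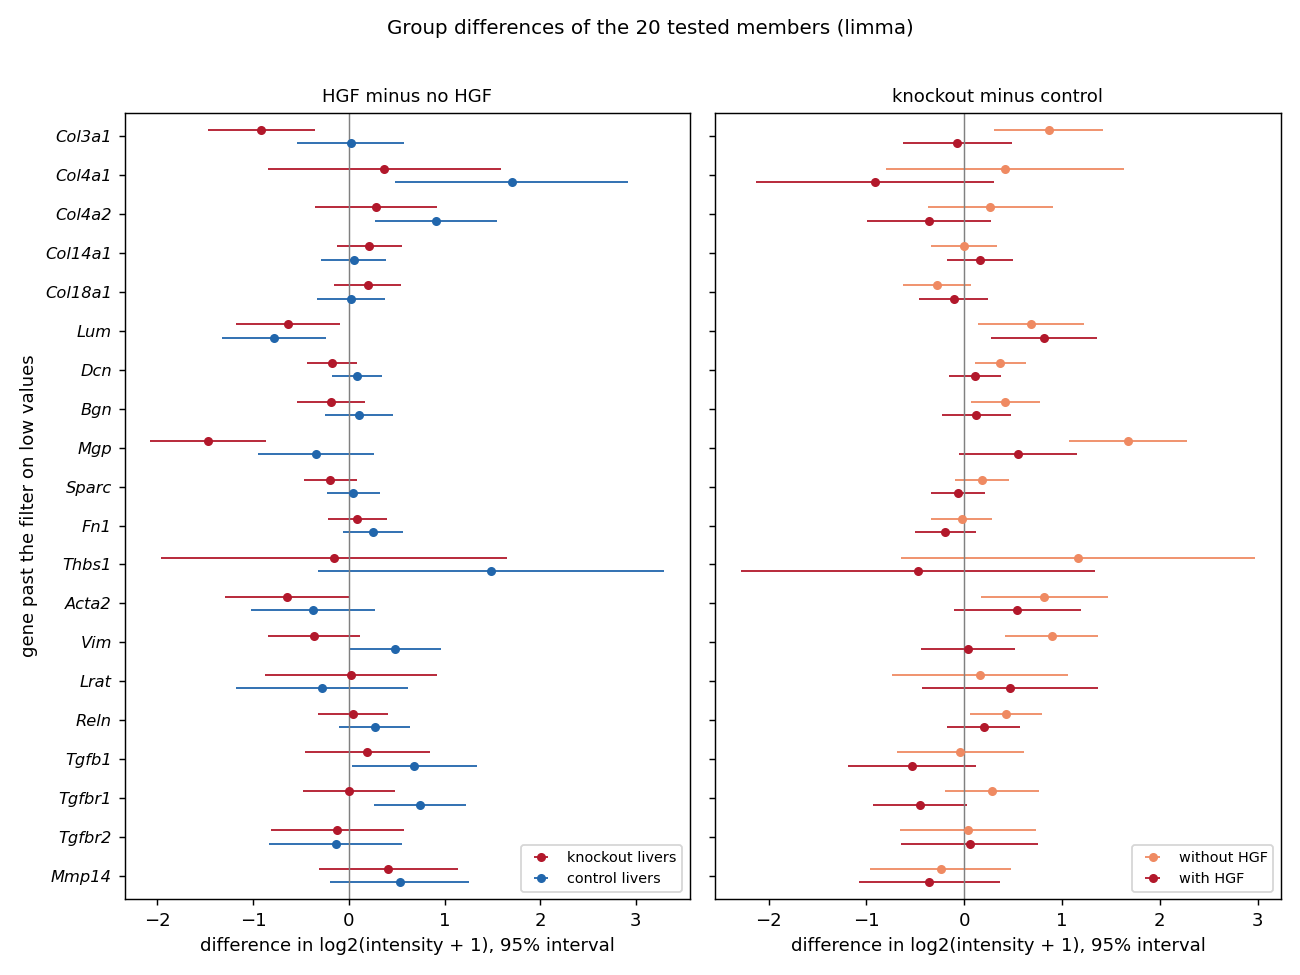
Differences in log2(intensity + 1) with 95% intervals from limma for the 20 genes past the filter, with HGF against no HGF in each genotype and knockout against control in each condition. The intervals of Col4a1, Col4a2, Tgfb1 and Tgfbr1 lie above 0 for HGF in control livers and cross 0 for HGF in knockout livers, and those of Col3a1 and Vim lie above 0 for the knockout without HGF. All arrays are included, also both knockout replicate 2 arrays, which went against their labels on the response index. Tgfb1 and Tgfbr1 passed the filter only with the control arrays with HGF counted.

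The remaining genes gave little signal. Sparc, a collagen-binding glycoprotein, lay between 7.67 and 8.20 on all arrays. The PDGF receptors Pdgfra and Pdgfrb stayed below the filter, at 2.24 to 2.97 and 3.17 to 3.94. The crosslinking enzyme Lox lay between 1.82 and 2.11 and its relative Loxl1 between 1.97 and 3.52, with the highest Loxl1 value on knockout replicate 1 without HGF. Fbln1, a matrix glycoprotein, lay between 2.23 and 2.57. Replicates spread more for the list than for the arrays as a whole: the median SD within a group was 0.25 and 0.35 for the list in knockout livers with and without HGF and 0.25 and 0.23 in control livers with and without HGF, against 0.21, 0.24, 0.19 and 0.11 for all probe sets in the same order of groups.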

How the data were processed

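Biotin-labelled cRNA made from total liver RNA was hybridised to Affymetrix arrays, 1 array per sample, per the labels' protocols. The deposited values are probe set intensities that the authors made with GCRMA, per the submitters' processing notes. GCRMA corrects for background by base composition and normalises between arrays. Its release was not given in the sources used here. Their linear scale was read from the values (array medians of 6.75 to 7.03). Such normalisation hides a change shared by most genes and compresses signals near background. The table holds 16539 probe sets, 64 of them array controls. Of the other 16475, 15780 had 1 gene symbol in the platform annotation and 695 had none; 42 of 42 listed symbols matched, and 0 columns belonged to other samples. Current names came from a RefSeq gene table of GRCm38.p6.

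Values were analysed as log2(intensity + 1), and all differences are on that scale, which understates change in dim genes. A 4-group model with 6 contrasts was fitted to the 6683 probe sets at 4 or more on at least 3 arrays, with limma 3.58.1 in R 4.3.3 (8 residual degrees of freedom, two-sided, Benjamini-Hochberg over all tested probe sets). Genes below the filter are given from a fit with no filter. The model was tested on simulated data. Groups and replicate numbers came from sample titles. Livers with the same number in a genotype were not paired: correlations of their deviations were 0.12, -0.83 and -0.70 for knockouts and 0.10, 0.18 and 0.05 for controls. The labels name 3 animals per group treated in parallel. Precision is limited by the number of arrays, and a difference between groups had a median standard error of 0.18. All 42 genes may be named; of other lists, the tested genes with the largest change in a contrast are. The genes and lists, and the alternative without both knockout replicate 2 arrays, were chosen with earlier results of these data known; counts of groups that do not overlap were chosen after the data were seen. Alternatives covered the filter, the pseudocount, quantile normalisation, array weights, fits to the groups compared, a replicate block and omitted arrays.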

Additional observations from a re-analysis of the deposited data

How the results depend on the processing

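Single genes were followed under the alternatives only where a tested gene had an unadjusted p under 0.05 in the main fit. Of these values, 549 kept their direction and stayed uncalled, and 28 passed the threshold where the main value had not. That 0 of them changed sign was largely set by this choice and does not describe the 42 genes in general. The difference of Thbs1 for HGF in knockout livers, not among them, was 1.32 without both knockout replicate 2 arrays and -0.15 with all arrays. With array weights, 6 of the 20 tested genes were called for HGF in control livers (20.2% of all probe sets), 8 for the knockout without HGF (9.53%), 3 for the knockout with HGF (4.34%) and 6 for the knockout averaged over both conditions (8.53%); the weight estimate stopped before it reached its tolerance. With the 2 control groups fitted alone, 5 were called for HGF in control livers (12% of all probe sets): Col4a1, Col4a2, Lum, Tgfbr1 and Thbs1. Tgfb1, Tgfbr1 and Thbs1 are in these tests only with the control arrays with HGF counted. Any call of these genes for HGF in control livers therefore supports nothing. Without both knockout replicate 2 arrays, 1 of the 20 tested genes was called for HGF in control livers (Col4a1, 8.16% of all probe sets). For the knockout without HGF, 1 was called (Mgp, 2.69%). Of the genes below the filter, fitted without these arrays and with no filter, Timp1 passed for HGF in control livers (limma adjusted p = 0.0275). Timp3 passed for the knockout without HGF (limma adjusted p = 0.0182). Groups that do not overlap then numbered 16 for HGF in knockout livers (background 41.9%) and 8 for the knockout with HGF (background 20.4%). With all arrays the counts were 5 and 5, but smaller groups separate more often, so the counts cannot be set against each other. A pseudocount of 16 called 1 gene for the knockout without HGF, Mgp, at 0.73 (limma adjusted p = 0.0471). Leaving out each array in turn gave 0 to 1 called genes for the knockout without HGF (Mgp without knockout replicate 1 with HGF, adjusted p = 0.0355) and 0 in the other comparisons. Mgp is in these tests only because of its 3 knockout arrays without HGF, so its calls support nothing; with no filter it was not called (adjusted p = 0.117), and with no filter and without both knockout replicate 2 arrays it lay at the threshold (1.71, adjusted p = 0.0497). A replicate block called 0 genes in every comparison. The count over all tested probe sets was 27 for HGF in control livers and ran between 0 and 1353 over the alternatives; for the knockout without HGF it was 4 and ran between 1 and 637, for the knockout with HGF 1 and between 1 and 290, for the averaged knockout 1 and between 1 and 570, for HGF in knockout livers 0 and up to 278, and for the difference of the HGF effects 0 and up to 268. The causes were not tested. Of the 42 genes, 22 lay below the filter, where signal is close to background.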
